A study of Mus musculus with 16 samples.

Results

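The effect of losing the transcription factor Cdx2 was read in distal colon organoids of the mouse that had been deprived of Wnt pathway factors. The comparison holds 4 of the 16 RNA-seq libraries: 2 of distal Cdx2-sgRNA organoids and 2 of distal Scramble-sgRNA organoids, all in WENR-minus medium, chosen by the region, guide and medium in the sample titles. Organoids were grown from the distal colon of 2 female mice, 8 weeks old, each heterozygous for a Cre-inducible BrafV600E allele and for a tdTomato reporter, and the methods describe no Cre step for these lines, so all groups carry the same alleles. Both groups received Cas9 with a guide RNA from a lentivirus. Single cells gave rise to the Cdx2-sgRNA organoids, of which those with frameshift mutations in both Cdx2 alleles were kept. The methods describe no such cloning for Scramble-sgRNA organoids, so the effect of the guide and the effect of cloning cannot be told apart. At culture month 4 the organoids spent 2 days in WENR-plus medium, which supplies Wnt3a, EGF, Noggin and R-spondin 1, and then 3 days in WENR-minus medium, which lacks all of them. The replicates of a group come from independent mice by the study's supplement, which does not state that a number stands for the same mouse in each group.

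Cdx2 is a caudal-type homeobox factor of the intestinal epithelium. It binds AT-rich DNA, keeps enterocyte genes such as those of the brush border active, and is known as a factor whose loss from the gut lets genes of the stomach and of stratified epithelium appear. Cdx1 is its close paralog. In the colon, stem cells at the crypt base depend on Wnt and R-spondin signals, and epithelium from which these signals are withdrawn stops dividing and differentiates. The comparison asks which genes answer to the presence of Cdx2 in distal epithelium under that condition.

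The Cdx2 guide is shown with the genomic bases that follow it, since it bears on what the Cdx2 reads can say. The capitals mark the protospacer adjacent motif that Cas9 needs, which is not part of the guide itself.

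Cdx2-sgRNA: agcggcgaaacctgtgcgagTGG

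The 20 bases of the guide lie on GRCm38 at chr5:147306485-147306504, on the minus strand, which is also the strand of Cdx2. The site is coding sequence in exon 1 of 3, and the predicted cut follows coding base 495 of 933, at codon 165. Of 141767 transcripts searched on both strands, 1 held the guide, and none held the Scramble-sgRNA guide. A small insertion or deletion there leaves the gene's promoter in place, and the mRNA level need not fall with the edit. It may fall, and in proximal organoids with the same guide Cdx2 mRNA was lower than in controls, as given below. What set the level was not tested.

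In the 4 libraries the authors' estimated counts summed to 16961962 to 18339036 per library over 54123 genes, and in all 16 libraries to 12465194 to 18922143. Mitochondrial ribosomal RNA took 21.5% to 27.1% of the 4 libraries. The median gene differed between the 2 replicates by 0.28 on the log2 scale in Scramble-sgRNA organoids and by 0.27 in Cdx2-sgRNA organoids. Markers fitted the epithelial label: 10 epithelial markers summed to 19662 to 21811 CPM (counts relative to library size) in Scramble-sgRNA and to 24954 to 26449 CPM in Cdx2-sgRNA libraries. Of 8 fibroblast markers 5 had no read in any of the 4 libraries (Col1a1, Col3a1, Dcn, Lum and Thy1), and the list summed to 6.002 to 6.02 CPM against 3.22 to 3.596 CPM. Of 8 immune markers 5 had no read (Cd3e, Cd79a, Lyz2, C1qa and Adgre1), with sums of 0.385 to 0.932 CPM against 2.26 to 3.64 CPM. Endothelial markers summed to 5.23 to 5.54 CPM against 2.43 to 2.96 CPM, smooth muscle markers to 0.154 to 0.215 CPM against 0.167 to 0.254 CPM, and neuronal and glial markers to 0.788 to 1.54 CPM against 1.18 to 1.25 CPM. No gene of these lists was called, although Cd68 and Csf1r were called higher in Cdx2-sgRNA organoids when no filter on low counts was applied (adjusted p = 0.0423 and 0.0118).

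Cdx2 mRNA was as abundant in Cdx2-sgRNA as in control organoids within the spread of the replicates. Cdx2 stood at 112 and 110.0 CPM in the Scramble-sgRNA libraries and at 126 and 86.1 CPM in the Cdx2-sgRNA libraries, a mean of 111 ± 1.69 against 106 ± 28.5 CPM (SD, n = 2 each). The groups overlapped, at a log2 fold change of -0.07 with SE 0.20, and the adjusted p was 0.876 by edgeR's quasi-likelihood test. The guide labels of these 4 libraries are therefore not checked by the Cdx2 level, since frameshift edits need not lower it. Cdx1 stood at 112 and 99.3 CPM in Scramble-sgRNA and at 70.7 and 70.5 CPM in Cdx2-sgRNA organoids. Both Cdx2-sgRNA values were below both controls, with a log2 fold change of -0.58 (SE 0.21) that did not pass the test (adjusted p = 0.107). By DESeq2 Cdx1 had an adjusted p of 0.00508 at a log2 fold change of -0.57, short of the fold limit given below.

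Of the genes that the study followed in these organoids, Fabp2 alone was called in the distal WENR-minus comparison. A call required that the Benjamini-Hochberg adjusted p was under 0.05 and that the log2 fold change was above 1 or below -1. Of all 15289 genes tested 5.25% were called, 2.24% higher and 3% lower in Cdx2-sgRNA organoids. Fabp2, the intestinal fatty acid-binding protein of enterocytes, stood at 41.0 and 7.67 CPM in Scramble-sgRNA and at 2.96 and 2.26 CPM in Cdx2-sgRNA organoids. It was downregulated by 9.29-fold (log2 fold change -3.22, SE 0.78, adjusted p = 0.0271), and the Cdx2-sgRNA values were close together while the controls differed from each other. Fabp2 lost its call in a fit of only the libraries of the comparison (log2 fold change -3.24, adjusted p = 0.0729). Without Scramble-sgRNA replicate 1, its higher control, the log2 fold change was -1.56 with adjusted p = 0.209, and the call was also lost without either Cdx2-sgRNA library (adjusted p = 0.117 and 0.162).

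The other differentiation genes that the study followed were not called. Car1, the carbonic anhydrase of colonocytes, stood at 4846 and 3061 CPM in controls and at 8574 and 7377 CPM in Cdx2-sgRNA organoids. The groups did not overlap, yet the log2 fold change of 1.01 (SE 0.35) had an adjusted p of 0.0967. Car1 was called by DESeq2 (adjusted p = 0.0254) and without the filter on low counts (adjusted p = 4.37e-04). It was also called by edgeR with the replicate number as a block (adjusted p = 0.00450), though the numbers were not shown to pair the guides. Vil1, the actin bundler villin of the brush border, read 963 and 692 CPM against 1188 and 1436 CPM, which passed the adjusted p (0.0490) but was under the fold limit (log2 fold change 0.66, SE 0.19). Both Cdx2-sgRNA libraries were above both controls for Vil1. Hnf4a, a nuclear receptor that directs enterocyte genes, read 1360.2 and 1335 CPM against 1699.6 and 1750.0 CPM (log2 fold change 0.36, SE 0.29, adjusted p = 0.470). Muc2, the main gel-forming mucin of goblet cells, read 936 and 586 CPM against 1322 and 573 CPM, and Krt20, a keratin of surface colonocytes, read 1429.8 and 904 CPM against 1412 and 2206 CPM. Both overlapped between the groups, with log2 fold changes of 0.32 (SE 0.70) and 0.63 (SE 0.53) and adjusted p values of 0.825 and 0.489.

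None of the stem cell genes that the study followed was called. Ephb2, a receptor of the crypt base, read 116 and 134 CPM in controls and 67.4 and 71.1 CPM in Cdx2-sgRNA organoids (log2 fold change -0.85, SE 0.22, adjusted p = 0.0320). The Ephb2 values did not overlap, but the change was under the fold limit. Lgr5, the R-spondin receptor of stem cells, had 25 and 50 reads in controls and 13 and 20 reads in Cdx2-sgRNA organoids (log2 fold change -0.99, SE 0.82, adjusted p = 0.484). Ascl2, a Wnt-driven factor of stem cells, had 6 and 10 reads in controls and 0 and 1 read in Cdx2-sgRNA organoids. At 3 reads per library as the floor it was at least 2.33-fold lower, with adjusted p = 0.0738, and it was called without the filter on low counts (adjusted p = 0.00368). Ascl2 was also called by edgeR with the replicate number as a block (adjusted p = 0.0310). Cdkn2a, a cell cycle inhibitor that is often silenced in colon tumours, had 0 and 7 reads against 9 and 16 reads (adjusted p = 0.323). Sox17 had at most 3 reads in each of the 4 libraries, and Sfrp4 had none and was not tested.

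**Figure D1:**
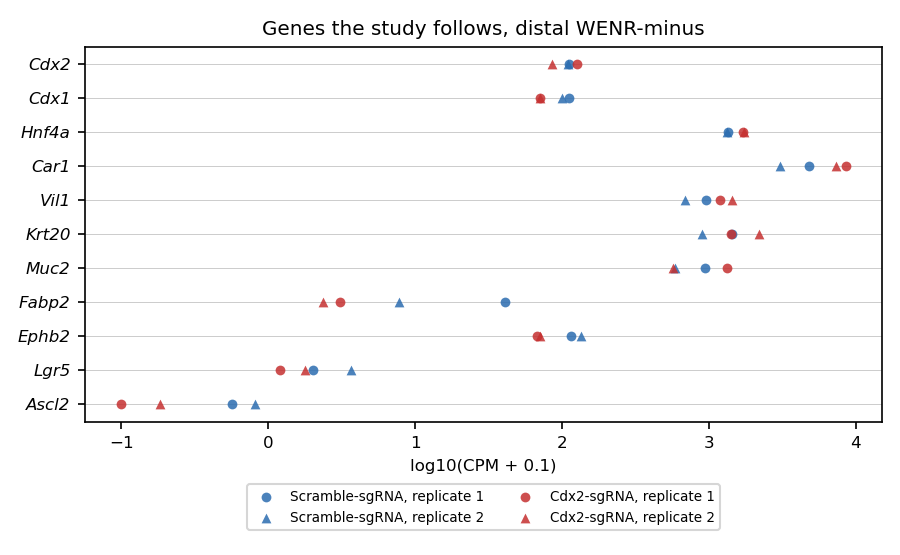
Level of the genes the study follows and of Cdx1 in the 4 distal WENR-minus libraries, as log10(CPM + 0.1) on the horizontal axis, with blue points for Scramble-sgRNA, red points for Cdx2-sgRNA, circles for replicate 1 and triangles for replicate 2. Fabp2 is the gene of the plot that was called, with 41.0 and 7.67 CPM in controls against 2.96 and 2.26 CPM.

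Across all genes, 802 of 15289 were called in the distal WENR-minus comparison: 343 upregulated and 459 downregulated in Cdx2-sgRNA organoids. Of these, 742 are protein coding and 622 reached 5 CPM in the higher group. Over 4-fold changes were found for 165 upregulated and 113 downregulated genes, and over 16-fold changes for 53 and 40. The values of all 802 called genes did not overlap between the groups, which was so for 56.4% of all genes tested. In 82 called genes every library of 1 group held at most 3 reads, and for these a lower bound of the fold stands in place of the fitted value: the group at the floor was Cdx2-sgRNA for 39 and Scramble-sgRNA for 43.

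The number of calls depended on single libraries. Without Scramble-sgRNA replicate 1 the test called 576 genes, without Scramble-sgRNA replicate 2 it called 131, without Cdx2-sgRNA replicate 1 it called 413, and without Cdx2-sgRNA replicate 2 it called 266. With 1 library in a group, that library is assumed to vary like those of the other groups. For calls below that were lost without 1 library, the largest adjusted p in those 4 fits is given.

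**Figure D2:**
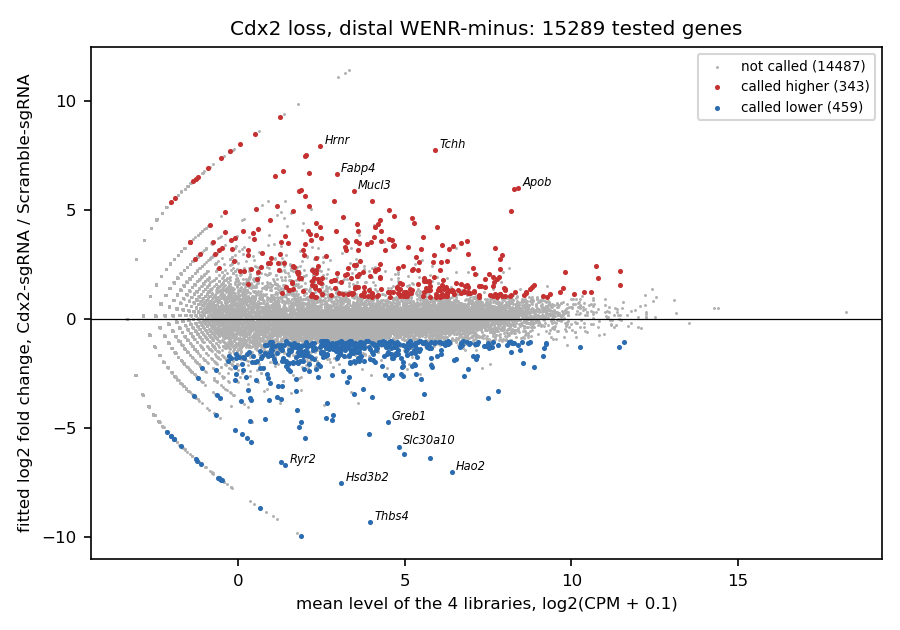
Log2 fold change of Cdx2-sgRNA against Scramble-sgRNA distal WENR-minus organoids (vertical axis) against the mean level of the 4 libraries as log2(CPM + 0.1) (horizontal axis) for the 15289 genes tested, with 343 higher calls in red and 459 lower calls in blue. Called genes lie at all levels of expression, and the largest fitted changes are at low CPM, where a group with at most 3 reads gives a lower bound only.

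The highest fold changes included a block of neighbouring epidermal genes. Hornerin (Hrnr), repetin (Rptn), trichohyalin (Tchh) and trichohyalin-like 1 (Tchhl1) encode S100-fused proteins of cornified epithelium and hair follicles. They are the 4 protein-coding genes annotated from Hrnr to Tchhl1 on GRCm38 at chr3:93319749-93471980, and all 4 were called upregulated, beside 2.24% of all genes. The ends of the interval were set by called genes, so this count is a description. Their promoters are shown because the 4 neighbours moved together. Each line gives the last 100 bases before the start site from RefSeq (GRCm38.p6), on the plus strand. Capitals mark TTTATNG or its reverse complement CNATAAA, letters that resemble the site Cdx factors bind, or TATAAA that begins 21 to 46 bases before the start site, the usual place of a TATA box.

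Hrnr, chr3:93319649-93319748: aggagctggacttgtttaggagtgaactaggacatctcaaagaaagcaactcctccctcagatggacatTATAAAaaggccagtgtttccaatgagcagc
Rptn, chr3:93393599-93393698: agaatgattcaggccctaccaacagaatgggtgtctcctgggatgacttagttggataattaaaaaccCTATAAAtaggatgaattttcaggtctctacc
Tchh, chr3:93442230-93442329: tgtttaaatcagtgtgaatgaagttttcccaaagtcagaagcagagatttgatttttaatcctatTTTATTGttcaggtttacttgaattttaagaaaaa
Tchhl1, chr3:93468654-93468753: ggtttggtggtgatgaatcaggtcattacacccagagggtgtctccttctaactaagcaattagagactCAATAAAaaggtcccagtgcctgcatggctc

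Rptn, Tchh and Tchhl1 held TTTATNG or its reverse complement in these 100 bases, and Hrnr held TATAAA alone. The reading of a match is limited, since CTATAAA in Rptn holds both motifs at once. Over the window from 250 bases before to 50 bases after the start site, 10.9% of 32851 RefSeq promoters hold TTTATNG on either strand, and 2.18% hold TATAAA at the TATA position. Of 10549 tested genes with a promoter, 8.57% held TTTATNG, against 11.3% of 238 upregulated and 7.61% of 355 downregulated genes. TATAAA at its position was found for 1.83%, 5.46% and 3.94% of the same sets. These shares are descriptions and were not tested.

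Transcripts of Rptn, Tchhl1 and Hrnr were at the floor of detection in controls, at no more than 3 reads per library, and those of Tchh were above it. Rptn had 0.0769 and 0 CPM in Scramble-sgRNA libraries and 8.55 and 7.44 CPM in Cdx2-sgRNA libraries, at least 35.9-fold higher (adjusted p = 0.00125). Tchh rose from 0.385 and 0.717 CPM to 119 and 121 CPM (log2 fold change 7.74, SE 1.47, adjusted p = 0.0107). Tchhl1 read 0.0769 and 0 CPM against 7.53 and 8.11 CPM, at least 35.1-fold higher (adjusted p = 0.0135). In these 3 genes both Cdx2-sgRNA libraries were at nearly the same level. Hrnr differed between the Cdx2-sgRNA libraries, with 18.8 CPM in replicate 1 and 2.93 CPM in replicate 2 against 0.0769 and 0 CPM in controls, at least 48.7-fold higher (adjusted p = 0.0425). The Rptn call held without each of the 4 libraries in turn. Hrnr lost its call without any 1 of them (adjusted p up to 0.233) and by DESeq2 (adjusted p = 0.307), Tchh lost it without either control (up to 0.0984), and Tchhl1 without Scramble-sgRNA replicate 2 or Cdx2-sgRNA replicate 2 (up to 0.106).

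Other genes of stratified epithelium rose as well. The list of squamous and epidermal genes had 22 of 39 genes tested, of which 6 were called upregulated and none downregulated, beside 2.24% and 3% of all genes. The median log2 fold change was 2.77 (1.75 with genes at the floor set to their bounds) beside 0 for all genes tested. With libraries left out 0 to 4 of the list were called, and with all libraries the alternatives gave 3 to 12 calls and medians of 1.19 to 2.90. Krt4, a keratin of oesophageal and other non-cornified squamous epithelium, rose from 1.62 and 2.87 CPM to 19.5 and 54.3 CPM (log2 fold change 4.03, SE 0.72, adjusted p = 0.00852). Ly6d, a surface protein of keratinocytes, rose from 11.003 and 13.3 CPM to 102 and 154 CPM (log2 fold change 3.39, SE 0.42, adjusted p = 0.00204). Krt14, the keratin of basal keratinocytes, read 0.0769 and 0.143 CPM against 4.23 and 4.18 CPM, at least 18.9-fold higher (adjusted p = 0.0451, up to 0.218 with 1 library left out). The groups were far apart for all 3 genes, and Krt4 and Ly6d differed from Krt14 in having reads well above the floor in controls. Ly6d held without each library in turn, while Krt4 was lost in 3 of the 4 fits (adjusted p up to 0.0704). In a bulk library more cells of a type and more RNA per cell cannot be told apart, for these and all later genes.

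Gastric genes were a smaller group. Of 23 genes 11 were tested and 2 were called, both upregulated, with a median log2 fold change of 1.92 (1.85 with floor bounds), beside 2.24% called higher over all genes. The count was 0 to 1 with libraries left out, and with all libraries the alternatives gave 0 to 5 calls and medians of 0.94 to 1.98. Anxa10, an annexin of stomach epithelium, read 0.231 and 0.0717 CPM against 7.11 and 8.36 CPM, at least 34.7-fold higher (adjusted p = 0.0267). Its call was lost without any 1 library (adjusted p up to 0.184). Vsig1, a junctional adhesion protein of gastric epithelium, rose from 9.31 and 6.59 CPM to 25.6 and 34.7 CPM (log2 fold change 1.92, SE 0.39, adjusted p = 0.0145, up to 0.131 with 1 library left out). Both Cdx2-sgRNA libraries were above both controls for each gene, which was so for every gene called higher.

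Genes of the fetal epithelium and of the YAP response gave 6 upregulated and no downregulated calls of 21 tested, beside 2.24% and 3% of all genes, with a median of 0.94. The count was 1 to 3 with libraries left out. Msln, a surface glycoprotein of mesothelium and of some tumours, rose from 31.6 and 22.7 CPM to 247 and 175 CPM (log2 fold change 2.96, SE 0.30, adjusted p = 0.00124). Clu, the secreted chaperone clusterin that marks regenerating crypts, rose from 3.62 and 5.38 CPM to 44.7 and 48.9 CPM (log2 fold change 3.37, SE 0.45, adjusted p = 0.00283). Both calls held without each library in turn, and the Cdx2-sgRNA libraries were close to each other. Ptgs2, the inducible cyclooxygenase, rose from 0.769 and 2.01 CPM to 63.4 and 26.2 CPM (log2 fold change 4.99, SE 1.17, adjusted p = 0.0245). Ccn2, a matricellular YAP target, rose from 0.769 and 0.788 CPM to 12.2 and 8.45 CPM (log2 fold change 3.71, SE 1.00, adjusted p = 0.0409). Ptgs2 and Ccn2 were lost without any 1 library (adjusted p up to 0.135 and 0.214). Ajuba and Krt7 had log2 fold changes of 1.19 and 1.11 and were likewise called in none and in 1 of the 4 fits (adjusted p up to 0.189 and 0.123).

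Among the remaining leading upregulated genes were a lipoprotein, a calcium channel and a fatty acid carrier. Fabp4, the fatty acid-binding protein of fat cells and macrophages, had 0 and 0.287 CPM in controls and 12.4 and 18.3 CPM in Cdx2-sgRNA organoids (log2 fold change 6.63, SE 1.06, adjusted p = 0.00573). Immune markers summed to 0.385 to 0.932 CPM in controls and 2.26 to 3.64 CPM in Cdx2-sgRNA libraries, and their part in the Fabp4 result was not tested. Adgrg6, an adhesion G protein-coupled receptor, read 0.154 and 0 CPM against 10.9 and 6.11 CPM, at least 38.2-fold higher (adjusted p = 0.00450). Rassf8, a Ras association domain protein, read 0.154 and 0.0717 CPM against 7.53 and 6.61 CPM, at least 31.7-fold higher (adjusted p = 0.00143). In these 3 genes the Cdx2-sgRNA libraries resembled each other and the controls were near zero. Ifi209, an interferon-inducible gene, was at least 30.6-fold higher (adjusted p = 0.0339), with 0 and 0.215 CPM against 8.63 and 5.02 CPM. Mucl3, a mucin-like gene, rose from 0.462 and 0.287 CPM to 13.2 and 30.4 CPM (log2 fold change 5.84, SE 0.87, adjusted p = 0.00437). With 1 library left out, Fabp4 and Rassf8 held in all 4 fits, Adgrg6 and Mucl3 were lost without Scramble-sgRNA replicate 2 (adjusted p = 0.0589 and 0.063), and Ifi209 was lost in all 4 (up to 0.159).

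**Figure D3:**
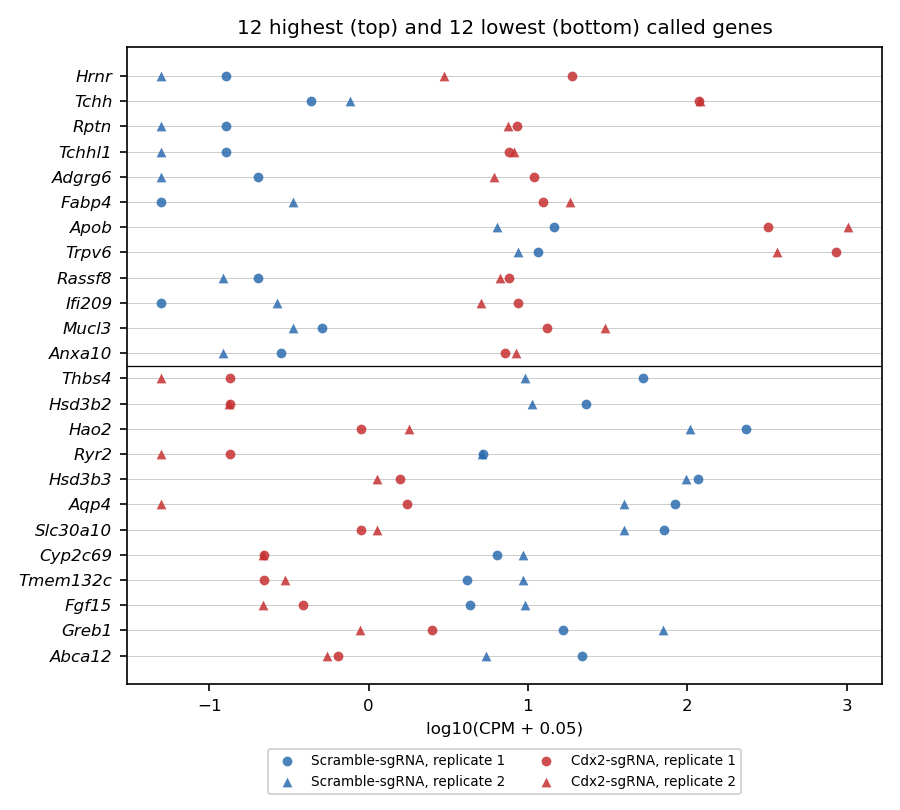
Level of the 12 highest (top) and 12 lowest (bottom) called genes in the 4 distal WENR-minus libraries, as log10(CPM + 0.05), with blue points for Scramble-sgRNA, red points for Cdx2-sgRNA, circles for replicate 1 and triangles for replicate 2. The genes were chosen to have no overlap between the groups. For Hrnr, Thbs4 and Greb1 the replicates within a group lie farther apart than for Tchh and Hsd3b3.

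Genes that are typical of small intestinal enterocytes moved in both directions. Of 24 tested genes 7 were called upregulated and 1, Fabp2, downregulated, beside 2.24% and 3% of all genes, with a median log2 fold change of 1.29. With libraries left out 0 to 7 were called, and with all libraries the alternatives gave 2 to 16. The 100 bases before the start sites of Apob and Fabp2 are given since the 2 genes belong to the same list and moved in opposite directions. Capitals mark TTTATNG or CNATAAA as above, and both genes are on the plus strand.

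Apob, chr12:7977577-7977676: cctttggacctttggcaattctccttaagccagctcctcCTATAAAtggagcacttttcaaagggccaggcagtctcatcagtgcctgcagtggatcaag
Fabp2, chr3:122894972-122895071: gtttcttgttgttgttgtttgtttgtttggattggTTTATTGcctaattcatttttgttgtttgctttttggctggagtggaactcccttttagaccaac

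Both promoters held a match. Apob, the scaffold of chylomicrons, rose from 14.5 and 6.38 CPM to 320.2 and 1016 CPM (log2 fold change 6.004, SE 0.93, adjusted p = 0.00518). Apoa1 and Apoa4, apolipoproteins that chylomicrons carry, rose from 2.62 and 0.502 CPM to 37.7 and 35.3 CPM and from 6.69 and 0.717 CPM to 54.5 and 36.5 CPM. For Apoa1 this was a log2 fold change of 4.55 with SE 0.86 (adjusted p = 0.0107) and for Apoa4 one of 3.62 with SE 0.89 (adjusted p = 0.0286). These 2 genes are neighbours: from Apoa1 to Apoa5, at chr9:46228580-46271919, 3 of 4 protein-coding genes were tested and the 2 named were called. Rbp2, the cellular retinol-binding protein of enterocytes, rose from 9.16 and 3.66 CPM to 84.4 and 153 CPM (log2 fold change 4.21, SE 0.74, adjusted p = 0.00919). All 4 lipid and retinoid carriers, like every gene called higher, were higher in both Cdx2-sgRNA libraries than in either control. Each lost its call without Scramble-sgRNA replicate 2, with adjusted p of 0.069 for Apob, 0.0885 for Apoa1, 0.135 for Apoa4 and 0.0914 for Rbp2. The call was lost for Apoa1, Apoa4 and Rbp2 also without Cdx2-sgRNA replicate 2, and Apoa4 without Cdx2-sgRNA replicate 1 as well.

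Absorptive and digestive genes of the same list followed. Slc15a1, the peptide transporter PepT1, rose from 69.0 and 43.5 CPM to 343 and 516 CPM (log2 fold change 2.93, SE 0.41, adjusted p = 0.00352). Ada, adenosine deaminase, rose from 94.3 and 28.5 CPM to 399 and 415 CPM (log2 fold change 2.73, SE 0.47, adjusted p = 0.00779). Mep1b, a meprin protease subunit of the brush border, rose from 193 and 94.7 CPM to 321 and 322 CPM (log2 fold change 1.16, SE 0.28, adjusted p = 0.0284). The Cdx2-sgRNA libraries were close together in Ada and Mep1b, and the controls differed. Ada was called in all 4 fits with 1 library left out, Slc15a1 was lost without Scramble-sgRNA replicate 2 (adjusted p = 0.0538), and Mep1b without 3 of the 4 libraries, Scramble-sgRNA replicate 1 excepted (up to 0.165).

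Calcium uptake genes formed a group that was put together after the values were seen. Trpv6, the apical calcium channel of enterocytes, rose from 11.5 and 8.60 CPM to 857 and 364 CPM (log2 fold change 5.93, SE 0.76, adjusted p = 0.00279), a call that held without each library in turn. S100g, the calcium carrier calbindin-D9k, rose from 1.54 and 3.51 CPM to 42.3 and 16.2 CPM (log2 fold change 3.53, SE 0.77, adjusted p = 0.0190), and Atp2b1, a basolateral calcium pump, rose with a log2 fold change of 1.16 (adjusted p = 0.0453). So 3 of 6 tested genes of the group were called, beside 2.24% called higher over all genes, though S100g and Atp2b1 were lost in 3 and in 4 of the fits with 1 library left out (adjusted p up to 0.114 and 0.239). Vdr, the vitamin D receptor that drives these genes, read 418 and 438 CPM against 637 and 890.5 CPM, which did not pass the test (log2 fold change 0.84, adjusted p = 0.171).

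Of 30 colonocyte markers 2 were upregulated and 2 downregulated (13.3%, beside 5.25% of all genes), with a median log2 fold change of 0.21. With all libraries the alternatives gave 3 to 11 calls. Leaving libraries out gave 0 to 2 calls. Car4, a membrane-bound carbonic anhydrase, rose from 401 and 257 CPM to 1382 and 1578 CPM (log2 fold change 2.17, SE 0.42, adjusted p = 0.0119). Mxd1, a Max partner of differentiated cells, rose from 1762 and 1056 CPM to 4115 and 4299 CPM (log2 fold change 1.58, SE 0.39, adjusted p = 0.0284). Tmigd1, an adhesion molecule of mature enterocytes, fell from 108 and 47.7 CPM to 6.35 and 16.8 CPM (log2 fold change -2.75, SE 0.64, adjusted p = 0.0234). Guca2b, the hormone uroguanylin, fell from 4.92 and 8.03 CPM to 0.931 and 1.67 CPM (log2 fold change -2.31, SE 0.65, adjusted p = 0.0476). None of the 4 held in every fit with 1 library left out, and the largest adjusted p was 0.119 for Car4, 0.214 for Mxd1, 0.137 for Tmigd1 and 0.238 for Guca2b. Of 19 genes of brush border structure none was called (median 0.45), with 16 above 0.

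Ion and water transport changed in both directions, with 4 of 29 tested genes upregulated and 3 downregulated (24.1%, beside 5.25% of all genes, median 0.36). Leaving libraries out gave 0 to 3 calls. Atp12a, the colonic proton-potassium pump, rose from 1002 and 998 CPM to 4862 and 4319.6 CPM (log2 fold change 2.20, SE 0.32, adjusted p = 0.00413). Scnn1a, a subunit of the epithelial sodium channel, rose from 57.2 and 49.5 CPM to 194 and 252 CPM (log2 fold change 2.06, SE 0.33, adjusted p = 0.00544). Ano1, a calcium-gated chloride channel, had a log2 fold change of 1.83 (adjusted p = 0.0387), and Car4 is the fourth. In Atp12a the replicates of each group were close together. Without Scramble-sgRNA replicate 2 neither Atp12a nor Scnn1a passed (adjusted p = 0.0535 and 0.0692), and Ano1 was lost in all 4 fits (up to 0.238). Slc9a3, the sodium-proton exchanger NHE3, fell from 559 and 248 CPM to 30.8 and 52.4 CPM (log2 fold change -3.28, SE 0.72, adjusted p = 0.0187, up to 0.12 with 1 library left out). Cftr, the cAMP-gated chloride channel, fell from 48.9 and 51.3 CPM to 4.32 and 13.05 CPM (log2 fold change -2.53, SE 0.56, adjusted p = 0.0196, up to 0.108). Aqp4, a basolateral water channel, fell from 84.3 and 39.9 CPM to 1.69 and 0 CPM (log2 fold change -6.19, SE 1.47, adjusted p = 0.0308, up to 0.16).

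The lowest fold changes included steroid and metal handling genes. Hsd3b2 and Hsd3b3, 3-beta-hydroxysteroid dehydrogenases, and Hao2, a peroxisomal hydroxyacid oxidase, lie together at chr3:98709255-98893239, where 3 of 5 protein-coding genes were tested. These 3 are the called genes by which the interval was drawn, so their number is a description, beside 3% called lower over all genes. Hsd3b3 fell from 116 and 98.8 CPM to 1.52 and 1.09 CPM (log2 fold change -6.36, SE 0.72, adjusted p = 0.00137). Hsd3b2 read 23.2 and 10.5 CPM against 0.0846 and 0.0836 CPM, at least 66.9-fold lower (adjusted p = 0.00120). Hao2 fell from 232 and 105 CPM to 0.846 and 1.76 CPM (log2 fold change -7.01, SE 1.26, adjusted p = 0.00889). Both Cdx2-sgRNA libraries were near zero for all 3. Hsd3b2 and Hsd3b3 are close copies, so the split of reads between them is uncertain, but both fell and both held without each library in turn, while Hao2 was lost without either Cdx2-sgRNA library (adjusted p up to 0.0688).

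Thbs4, a matrix thrombospondin, had the largest bound of all leading genes, at least 124-fold lower (adjusted p = 0.00619), with 52.9 and 9.53 CPM against 0.0846 and 0 CPM. Slc30a10, a manganese exporter, fell from 71.9 and 39.8 CPM to 0.846 and 1.09 CPM (log2 fold change -5.84, SE 0.86, adjusted p = 0.00602). Without Cdx2-sgRNA replicate 2 both missed the limit (adjusted p = 0.0595 and 0.0532). In a group put together after the values were seen, 3 of 8 iron and manganese transport genes were downregulated and none upregulated, beside 3% and 2.24% of all genes: Slc30a10, the importer Slc39a14 (log2 fold change -1.13, adjusted p = 0.0205) and the transferrin receptor Tfrc. Tfrc read 1587 and 1905 CPM against 723 and 715 CPM, with little spread in Cdx2-sgRNA organoids (log2 fold change -1.28, SE 0.26, adjusted p = 0.0145). With 1 library left out Tfrc was called in 1 of 4 fits and Slc39a14 in none (adjusted p up to 0.103 and 0.146). Of 14 glutathione transferase genes grouped in the same way 2 were upregulated (Gsta4 and Mgst2, log2 fold changes 1.25 and 1.04) and 3 downregulated (Mgst1, Gsta3 and Gstm1, -2.64, -1.95 and -1.54), beside 2.24% and 3% of all genes, and none of the 5 held in more than 1 of those fits (adjusted p up to 0.307).

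Fgf15, the ileal hormone that represses bile acid synthesis, fell from 4.31 and 9.53 CPM to 0.338 and 0.167 CPM (log2 fold change -4.74, SE 0.99, adjusted p = 0.0155). Greb1, an oestrogen-responsive gene, fell from 16.5 and 70.0 CPM to 2.45 and 0.836 CPM (log2 fold change -4.71, SE 0.82, adjusted p = 0.00785). Abca12, a lipid transporter best known from the epidermis, fell from 21.7 and 5.38 CPM to 0.592 and 0.502 CPM (log2 fold change -4.61, SE 0.87, adjusted p = 0.0105), against the direction of the epidermal genes above. In each of the 3, as in every gene called lower, the Cdx2-sgRNA libraries were below both controls. Ryr2, a calcium release channel, was at least 20.3-fold lower, Cyp2c69, a cytochrome P450 with close copies that make its count uncertain, at least 30.8-fold lower, and Tmem132c at least 26.4-fold lower (adjusted p = 0.0187, 0.0216 and 0.00953). All 6 lost their call without at least 1 library, with adjusted p up to 0.121, 0.0744, 0.0885, 0.131, 0.133 and 0.0704 in the order named.

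Of the intestinal transcription factors, 1 of 25 tested was called (4%, beside 5.25% of all genes). Isx, an intestine-specific homeobox factor that controls vitamin A uptake, fell from 258 and 185 CPM to 55.8 and 68.5 CPM (log2 fold change -1.83, SE 0.20, adjusted p = 0.00125), and it was called in all 4 fits with 1 library left out. The list had a median of 0.16. Of 22 goblet cell genes none was called (median -0.05), and of 24 enteroendocrine genes 1 was, Cpe, a prohormone-processing carboxypeptidase, with 20.3 and 11.5 CPM against 45.9 and 151 CPM (log2 fold change 2.63, SE 0.46, adjusted p = 0.00805, and 0.0882 without Scramble-sgRNA replicate 2). The goblet list median moved between -1.09 and 0.56 when 1 library, or both libraries of 1 replicate number, were left out. Clca1 and Fcgbp, 2 secreted goblet cell proteins, read 4464 and 1754 against 6049 and 1976 CPM and 2549 and 1935 against 5304 and 2271 CPM. In both genes the groups overlapped. Only 5 of 19 tuft cell genes were tested, and Il17rb, the receptor of interleukin 25, was called (log2 fold change 2.58, adjusted p = 0.0156, up to 0.137 with 1 library left out).

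Of 54 tested G2M genes 13 were downregulated and none upregulated, with a median of -1.05 and 53 below 0. Of 43 S phase genes 6 were downregulated and 1, Ccne2, upregulated (log2 fold change 1.06, adjusted p = 0.0378, up to 0.184 with 1 library left out), with a median of -0.78 and 36 below 0. These counts stand beside 3% called lower over all genes. With libraries left out they fell to 0 to 9 calls for G2M and 0 to 5 for S phase genes, and with all libraries the alternatives gave 6 to 27 and 4 to 13. The median of each list was below 0 in every fit run, at -1.41 to -0.66 for G2M and -1.05 to -0.49 for S phase genes with libraries left out. Cdca2 fell from 7.08 and 9.68 CPM to 1.78 and 2.26 CPM (log2 fold change -2.05, SE 0.43, adjusted p = 0.0158). Ttk, a kinase of the spindle checkpoint, fell from 4.77 and 5.02 CPM to 1.35 and 1.17 CPM (log2 fold change -1.95, SE 0.40, adjusted p = 0.0154). Tyms, thymidylate synthase, fell from 6.08 and 5.95 CPM to 1.44 and 1.76 CPM (log2 fold change -1.91, SE 0.29, adjusted p = 0.00516). The replicates of these genes were close, and Tyms held without each library in turn, while Cdca2 and Ttk were lost without 3 of the 4 (adjusted p up to 0.108 and 0.103). Cdkn1c, the cell cycle inhibitor p57, rose from 54.1 and 56.9 CPM to 133 and 113 CPM (log2 fold change 1.14, SE 0.27, adjusted p = 0.0255, up to 0.141 with 1 library left out).

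Stem cell and Wnt target genes gave 2 calls in each direction of 27 tested (14.8%, beside 5.25% of all genes, median -0.32), and 1 to 4 calls with libraries left out. Cdca7, a replication-linked gene, fell from 9.54 and 8.10 CPM to 1.35 and 2.59 CPM (log2 fold change -2.15, SE 0.31, adjusted p = 0.00358). Lrig1, an inhibitor of EGF receptors that marks stem cells, fell from 35.9 and 45.2 CPM to 17.7 and 12.8 CPM (log2 fold change -1.41, SE 0.28, adjusted p = 0.0138). Lgr4, the R-spondin receptor that is widely expressed in crypts, rose from 192 and 185 CPM to 454 and 439 CPM (log2 fold change 1.24, SE 0.14, adjusted p = 0.00137). Replicates of Lgr4 differed by little in both groups, and its call held without each library in turn, as did that of Cdca7, while Lrig1 was lost without Scramble-sgRNA replicate 2 or Cdx2-sgRNA replicate 2 (adjusted p up to 0.111). Cd44, an adhesion receptor, rose from 18.5 and 23.2 CPM to 70.0 and 58.7 CPM (log2 fold change 1.62, SE 0.36, adjusted p = 0.0205, up to 0.113 with 1 library left out).

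BMPs are growth factors of the upper crypt that restrain stem cells, and Noggin, which WENR-minus medium lacks, blocks them. Of 20 tested genes of the BMP and TGF-beta list 6 were upregulated and none downregulated (median 1.11), beside 2.24% called higher over all genes, and 5 of the 20 were below 0. With libraries left out 0 to 4 of them were called. The ligands Bmp3 and Bmp8a rose from 89.0 and 55.3 CPM to 248 and 346 CPM (log2 fold change 2.04, SE 0.26, adjusted p = 0.00272) and from 6.23 and 3.44 CPM to 14.8 and 22.8 CPM (log2 fold change 1.96, SE 0.48, adjusted p = 0.0285). The target genes Id1 and Id3, which encode inhibitors of DNA binding, rose from 47.5 and 33.2 CPM to 103 and 117 CPM (log2 fold change 1.45, adjusted p = 0.0126) and from 4.62 and 3.37 CPM to 12.4 and 13.4 CPM (log2 fold change 1.69, adjusted p = 0.0162). The feedback inhibitors Smad6 and Smad7 had log2 fold changes of 1.33 and 1.20 (adjusted p = 0.0357 and 0.00863). All 6 genes, like every gene called higher, were higher in both Cdx2-sgRNA libraries than in either control. Bmp3 held without each library in turn. The other 5, Bmp8a, Id1, Id3, Smad6 and Smad7, were lost without 1 or more libraries, Scramble-sgRNA replicate 2 always among them (adjusted p up to 0.215, 0.119, 0.139, 0.185 and 0.0903).

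In the EGF and MAPK list 3 of 25 genes were called (12%, beside 5.25% of all genes). The ETS factors Etv5 and Etv4 fell, Etv5 from 17.9 and 15.6 CPM to 2.03 and 2.51 CPM (log2 fold change -2.88, SE 0.37, adjusted p = 0.00266) and Etv4 with a log2 fold change of -1.93 (adjusted p = 0.0255, up to 0.168 with 1 library left out). Dusp6, a phosphatase of ERK and like them an output of MAPK signalling, rose from 191 and 151 CPM to 368 and 333 CPM (log2 fold change 1.04, SE 0.19, adjusted p = 0.00971, up to 0.0982). So the 3 called outputs of the list did not move in 1 direction. Of 16 Notch and secretory regulators 1, Notch2, was called (log2 fold change 1.40, adjusted p = 0.0422, up to 0.252). Of 25 p53 target and cell cycle inhibitor genes, also 12% called, 2 were upregulated (Pmaip1 and Cdkn1c) and 1 downregulated (Gtse1, log2 fold change -1.20), with adjusted p up to 0.0724, 0.141 and 0.169.

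No gene was called among 23 of cholesterol synthesis and uptake (median -0.39), 24 of host defence (median 0.32) and 21 of hypoxia and glycolysis (median -0.04). With all libraries the alternatives gave 0 to 1, 0 to 5 and 0 to 1 calls in the order named. Of 20 fatty acid oxidation genes 1 was called, Acads (log2 fold change -1.24, adjusted p = 0.00795, up to 0.0538 with 1 library left out), and of 25 stress response genes 1, Psat1 (log2 fold change -1.49, adjusted p = 0.0449, up to 0.337). Among 26 genes of desmosomes, junctions and keratins 3 rose and 1 fell (15.4% called, beside 5.25% of all genes). The claudins moved in opposite directions: Cldn8, a tight junction sealing protein of the distal colon, rose from 9.46 and 10.3 CPM to 56.8 and 85.7 CPM (log2 fold change 2.85, SE 0.46, adjusted p = 0.00581), and Cldn15, a pore-forming claudin, fell from 73.5 and 131 CPM to 37.1 and 30.9 CPM (log2 fold change -1.59, SE 0.26, adjusted p = 0.00589). Tjp1, the scaffold ZO-1, rose with a log2 fold change of 1.14 (adjusted p = 0.00623). Krt7, named above, is the third that rose, and it held its call without Scramble-sgRNA replicate 2 (adjusted p = 0.0247) and lost it without each of the other 3. Without that library Cldn8, Cldn15 and Tjp1 did not pass, and Cldn15 and Tjp1 were also lost without Cdx2-sgRNA replicate 2 (adjusted p up to 0.0654 for Cldn8, 0.0542 for Cldn15 and 0.0720 for Tjp1).

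**Figure D4:**
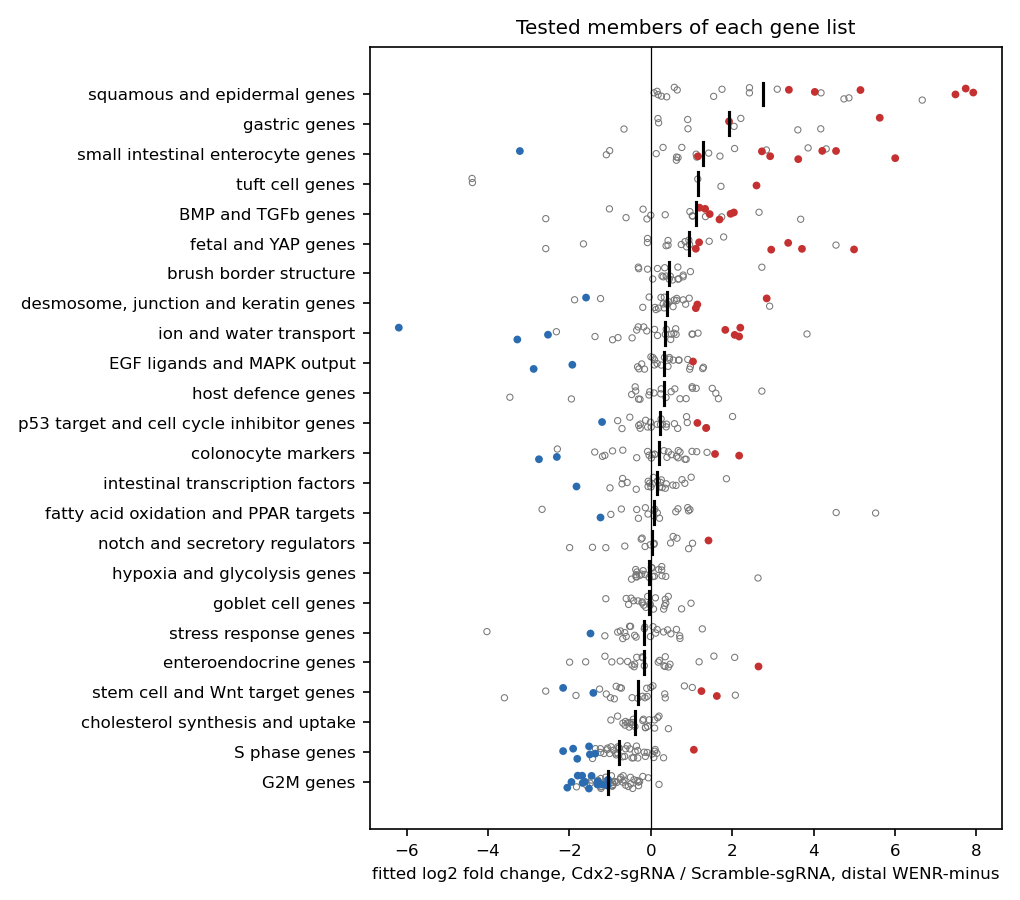
Log2 fold changes of the tested genes of each list in distal WENR-minus organoids, Cdx2-sgRNA against Scramble-sgRNA, as points (open where not called, red where called higher, blue where called lower), with a black bar at the list median. The medians range from -1.05 for G2M genes to 2.77 for squamous and epidermal genes, beside 0 for all genes tested.

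The same comparison in proximal WENR-minus organoids, which have their own controls, gave more calls and another pattern. There 21.2% of tested genes were called, 9.04% higher and 12.1% lower, against 5.25% in distal organoids. The effect of Cdx2-sgRNA was tested for a difference between distal and proximal organoids in the same model, and 14.3% of genes (2180) differed, 9.08% with the distal effect above and 5.17% with it below the proximal one. Among the genes called in distal organoids, 117 of the 343 upregulated and 195 of the 459 downregulated genes differed between the regions. Of the 802 genes 356 were also called in proximal organoids, 292 in the same and 64 in the opposite direction. Of these 64, whose opposite calls leave little open to the test of the difference, 42 were upregulated and 22 downregulated in distal organoids.

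Several differentiation genes that the study followed differed between the regions. Car1 had a log2 fold change of 1.01 in distal and -8.88 in proximal organoids, a difference of 9.89 (SE 0.59, adjusted p = 1.64e-06). Muc2 had 0.32 and -8.61, a difference of 8.93 (adjusted p = 5.94e-04). Cdx1 had -0.58 in distal and -8.26 in proximal organoids, a difference of 7.68 (adjusted p = 6.11e-07), and stood at 70.7 and 70.5 CPM in distal Cdx2-sgRNA organoids and at 0.520 and 0.212 CPM in proximal ones. Hnf4a and Vil1 differed by 2.92 (adjusted p = 9.56e-04) and 2.27 (adjusted p = 3.09e-04). Cdx2 itself was at 73.9 and 71.0 CPM in proximal Cdx2-sgRNA against 203 and 151 CPM in proximal Scramble-sgRNA organoids, and its own log2 fold change differed between the regions by 1.22 (adjusted p = 0.0132). Fabp2 was downregulated in both, and the difference did not pass the test (3.21, SE 1.11, adjusted p = 0.0693).

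The genes that moved in opposite directions included BMP, calcium and digestive genes. Bmp3 rose in distal (log2 fold change 2.04) and fell in proximal organoids (-8.43, adjusted p = 1.15e-07), and Mep1b read 1.16 and -8.49 (adjusted p = 2.80e-07). Aoc1, a diamine oxidase, read 1.81 and -7.20 (adjusted p = 9.75e-08), and S100g rose in distal and was at least 27.8-fold lower in proximal organoids (adjusted p = 0.00172). Slc15a1, Ada and Cdkn1c were also higher in distal and lower in proximal Cdx2-sgRNA organoids (proximal log2 fold changes -1.83, -2.94 and -3.05). The reverse held for the glutathione transferases Gsta3 and Gstm1 and for the mitotic genes Hmmr and Cenpa. Hmmr read 24.4 and 38.9 CPM against 7.45 and 12.2 CPM in distal organoids (log2 fold change -1.69) and had a log2 fold change of 1.26 in proximal organoids. In distal organoids Hmmr and Cenpa each lost their call in 3 of the 4 fits with 1 library left out (adjusted p up to 0.198 and 0.1001).

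The median log2 fold change of G2M genes was -1.05 in distal and 0.97 in proximal organoids, and that of S phase genes -0.78 and 0.82. The difference between the regions was called for 38 of 54 G2M and 17 of 43 S phase genes, all with the distal effect below the proximal one. Goblet cell genes had medians of -0.05 and -5.89, with 15 of 22 called for the difference, enteroendocrine genes -0.18 and -5.15 (13 of 24), colonocyte markers 0.21 and -3.62 (23 of 30) and small intestinal enterocyte genes 1.29 and -3.004 (12 of 24). Squamous and epidermal genes had positive medians in both regions, 2.77 and 2.25, and 4 of 22 were called for the difference. Gastric genes had medians of 1.92 and 7.08, with 6 of 11 called for the difference, 5 of them with the distal effect below. Fetal and YAP genes had 0.94 and 2.57, with 6 of 21 called for the difference, 4 of them with the distal effect below. Each of these shares stands beside the 14.3% of all genes.

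**Figure D5:**
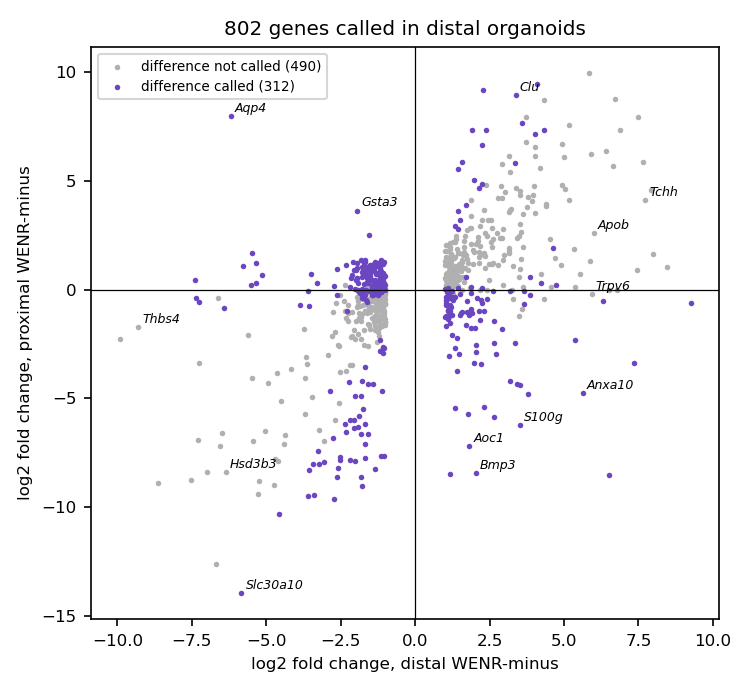
Log2 fold change of Cdx2-sgRNA against Scramble-sgRNA in proximal (vertical axis) against distal organoids (horizontal axis), both in WENR-minus medium, for the 802 genes called in distal organoids, in purple where the difference between the regions was called. Genes at the upper left and lower right have opposite signs, and 64 of them were called in both regions, as for Bmp3 (2.04 in distal, -8.43 in proximal).

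In WENR-plus medium distal Cdx2-sgRNA and Scramble-sgRNA organoids differed by 40 genes or 0.262% of those tested. The contrasts of the 2 media use different libraries of 1 fit. Of the 40 genes, 36 were also called in WENR-minus medium, beside 5.25% of all genes tested, each in the same direction. They include Isx (log2 fold change -2.96 in WENR-plus, adjusted p = 1.94e-04, and -1.83 in WENR-minus), Etv5 (-2.02 and -2.88), Msln (2.40 and 2.96) and Ly6d (3.43 and 3.39). Thbs4 was at least 149-fold lower in WENR-plus and at least 124-fold lower in WENR-minus medium. The methods describe organoids that were divided between the media, so these may be repeated readings of the same lines.

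The test of a difference between the media called no gene by edgeR without a block, and its count depended on the setting. Before adjustment 1457 genes had p under 0.05. With a block for each line (region, guide and replicate number), whose libraries deviated together across the media, edgeR called 48 genes. It called 8 with the replicate number alone as a block and 354 without the filter on low counts, and DESeq2 called 120. Of the 343 upregulated genes 306 were above 0 in WENR-plus medium too, where their median log2 fold change was 0.70 against 1.92 in WENR-minus. Of the 459 downregulated genes 412 were below 0 there, with medians of -0.30 and -1.44. The median of all genes tested was -0.01 in WENR-plus. Since these genes were chosen by their WENR-minus values, the smaller medians in WENR-plus are a description. The G2M and S phase medians were -0.11 and -0.29 in WENR-plus medium. Tchh read 7.74 and Apob 6.004 in WENR-minus, against 3.35 and 0.98 in WENR-plus, and in neither did the difference pass the test without a block (adjusted p = 0.529 and 0.244). With the block for each line Apob passed (adjusted p = 0.0459) and Tchh did not (adjusted p = 0.0639). Apob also passed by DESeq2 (adjusted p = 0.0207), and both genes passed without the filter on low counts (adjusted p = 9.89e-13 for Tchh and 3.38e-46 for Apob).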

How the data were processed

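The authors used a stranded total RNA kit of the SMARTer type, quantified reads with Salmon (1.1.0 in the submitters' processing notes) on GENCODE vM23 transcripts of mm10, and tested genes with DESeq2 after tximport. The labels give the molecule as genomic DNA, while the protocols describe RNA. Each deposited table holds estimated counts (expected counts) per transcript, unscaled between libraries, and TPM, which the authors' Salmon run computed and which were used here only for length-scaled counts. Estimated counts were summed per gene by transcript identifier (GENCODE vM21, GRCm38) and rounded. Unmatched transcripts held at most 0.509% of a library.

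In R 4.3.3, filterByExpr of edgeR 4.0.16 kept 15289 genes. TMM scaling and glmQLFit with 1 coefficient per group were applied to all 16 libraries (8 groups, 8 residual degrees of freedom, prior count 0.125), and glmQLFTest gave p-values adjusted by Benjamini-Hochberg over all genes. SE is the absolute log2 fold change over the square root of F. CPM are TMM-scaled. Where each library of a group had at most 3 reads, the fold is a bound against 3 reads per library. Floors cover counting error only.

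Alternatives were RLE size factors, other filters, DESeq2 1.42.0, length-scaled counts, no mitochondrial genes, the comparison's own libraries, left-out libraries, and a block for the replicate number or, chosen after seeing the data, for each combination of region, guide and number. The supplement gives the replicates as independent mice, without stating which number is which mouse in each group. Deviations of same-numbered libraries from their group means correlated across media at 0.281 to 0.589 in all 4 combinations of region and guide, so numbers were taken to pair the media, and not the guides, where they did not all exceed 0.1. The main fit counts the WENR-plus and WENR-minus libraries of a line as independent, although they deviated together. Its residual degrees of freedom may therefore be too many, and the p-values of the distal and regional tests too small. For these tests, only the fit of the comparison's own libraries leaves the other medium out. The p-values measure the spread between 2 libraries of a group, in which mouse and, for Cdx2-sgRNA, single-cell origin are mixed. The script was tested on simulated counts.

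Members and gene lists were chosen with earlier results of these data known. The cell cycle lists came with Seurat 5.3.0, and the others were written by hand. Genes were named by rule: Cdx2 and Cdx1, genes the study follows, the 12 highest and lowest called genes of at least 5 CPM in the higher group without overlap, list members, and leading genes of the region difference. Other called list members, and the calcium, metal and glutathione groups, were named after their values were seen. One gene the study names is not reported here.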

Additional observations from a re-analysis of the deposited data

Results flagged for a closer look

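The effect of Cdx2-sgRNA in WENR-minus medium differed between distal and proximal organoids for 2180 genes by edgeR's quasi-likelihood test of the difference itself. Values are the distal minus the proximal log2 fold change. The genes the study follows among them were Car1 (9.89), Muc2 (8.93), Hnf4a (2.92), Vil1 (2.27) and Cdx2 itself (1.22), with Cdx1 at 7.68.

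Of the leading distal genes, Anxa10 (10.4), Slc30a10 (8.11) and Aqp4 (-14.2) differed between the regions. For each, a proximal group was at the floor, so the size of the difference depends on the prior count. Anxa10 was at least 10.2-fold lower and Slc30a10 at least 620-fold lower in proximal Cdx2-sgRNA than in proximal Scramble-sgRNA organoids. Aqp4 had no read in proximal Scramble-sgRNA libraries and 2.23 and 1.59 CPM in proximal Cdx2-sgRNA libraries, against a fall from 84.3 and 39.9 CPM to 1.69 and 0 CPM in distal organoids.

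Other large fitted differences over all genes were those of Gsdmc3 (12.9), Nts (12.7), Lyz1 (12.5), Fam167a (-12.3) and Fmnl1 (-12.2). In each, a proximal group had at most 3 reads in every library, so the size of the difference depends on the prior count, and none was called in distal organoids with the filter on low counts. Without that filter Gsdmc3, Nts and Lyz1 were called there (adjusted p = 1.21e-05, 0.0216 and 1.72e-18). Gsdmc3, a gasdermin, read 1.62 and 0.0717 CPM in distal Scramble-sgRNA and 15.5 and 1.25 CPM in distal Cdx2-sgRNA libraries. Lyz1, the Paneth cell lysozyme, read 0.0769 and 0.430 CPM against 16.3 and 1.09 CPM, so that 1 library carried most of its reads.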

How the results depend on the processing

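The 802 calls became 1492 without the fold limit, 1531 without the filter on low counts, and 597 to 1047 under the other alternatives with all libraries. The 597 came from the comparison's own libraries, a fit in which 767 of the 802 had a value and 458 kept the call. With libraries left out they were 22 to 576: 131 without Scramble-sgRNA replicate 2, 413 and 266 without Cdx2-sgRNA replicate 1 and 2, 196 without replicate 1 and 22 without replicate 2 of both groups. The cause was not tested. The 2180 regional calls ranged from 1661 to 3185, and from 831 to 1874 with libraries left out (1220 without Scramble-sgRNA replicate 2, 1420 and 831 without replicate 1 and replicate 2 of the groups). The difference between the media (0 genes) became 354 without the filter, 4 with at least 10 reads in every library, 120 by DESeq2 and 1 without Scramble-sgRNA replicate 1, and 0 to 1 over all left-out libraries.

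With the replicate number as a block there were 940 calls in distal WENR-minus organoids, 2436 for the region and 8 for the medium, and 48 for the medium with a block for each combination of region, guide and number. In named genes the block changed the call of Car1 (adjusted p = 0.00450) and Ascl2 (adjusted p = 0.0310). Between the guides the numbers were not shown to pair the samples: deviations of same-numbered Scramble-sgRNA and Cdx2-sgRNA libraries from their group means correlated at -0.059 and -0.035 in proximal and at 0.148 and 0.116 in distal organoids (WENR-plus and WENR-minus). Across the media they correlated at 0.407 and 0.589 in proximal and at 0.281 and 0.404 in distal organoids (Scramble-sgRNA and Cdx2-sgRNA).

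Of 67 called genes among the 115 named and tested, 54 kept their call in every alternative with all libraries that held a value for them. Hsd3b2 and Msln kept it also in every fit with libraries left out. A gene removed by a filter has no value there: of the 802 calls 535 had one with at least 10 reads in every library. The calls lost with all libraries were those of Fabp2, Hrnr, Tmigd1, Guca2b, Apoa4, Il17rb, Lrig1, Krt14, Ccn2, Etv4, Gtse1, Krt7 and Clspn. Of 1539 values of named genes 281 lost and 12 gained the call. Groups of 2 limit the precision, and where both groups were under about 3 reads a library a difference was not detectable at this depth.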
